A study of Mus musculus with 19 samples.

Results

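The nuclear-encoded genes of the mitochondrial respiratory chain and ATP synthase were examined in mouse cerebral cortex at E13.5 after deletion of *Ino80*, which encodes the ATPase of a nucleosome remodeler. Members were all protein-coding genes (GENCODE gene type) named as subunits of complex I (*Ndufa*, *Ndufb*, *Ndufc*, *Ndufs* and *Ndufv* genes with a number, and *Ndufab1*), complex II (*Sdha* to *Sdhd*), complex III (*Uqcr* genes), complex IV (*Cox4* to *Cox8* genes) or complex V (*Atp5* genes). The rule used names only and no measured value. It found 84 genes among the 51912 in the count files: 37 of complex I, 4 of complex II, 8 of complex III, 18 of complex IV and 17 of complex V. A further gene model that also carries the symbol *Atp5o* met the rule but was absent from the count files. The names set the grouping, so *Ndufa4*, now regarded as a complex IV subunit, was counted with complex I, and the complex III subunit *Cyc1* fell outside the rule.

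The 3 groups were 7 control cortices (ctrl), 5 cortices with conditional deletion of *Ino80* (cKO-E) and 7 cortices with deletion of both *Ino80* and *Trp53*, the p53 gene (dKO-E). The genotype of cKO-E was Emx1Cre/+ with Ino80fl/fl, and dKO-E embryos carried Trp53fl/fl in addition. All embryos were of mixed C57BL/6 and 129 background, and the alleles carried by each control embryo were not given in the sources used here. *Emx1*-Cre acts in progenitors of the dorsal telencephalon and their descendants, so interneurons, microglia and vessels in the same tissue kept the intact genes. Each library came from 1 embryo of 1 of 7 litters. The ctrl group held 4 females and 3 males from 4 litters, the cKO-E group 4 females and 1 male from 5 litters, and the dKO-E group 2 females and 5 males from 2 litters. By the batch label, batch 1 held 4 ctrl, 3 cKO-E and 4 dKO-E libraries. Batch 2 held 3 ctrl, 2 cKO-E and 2 dKO-E libraries, and batch 3 held 1 dKO-E library.

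The respiratory chain passes electrons from NADH (complex I) and succinate (complex II) through complex III to oxygen at complex IV, and the proton gradient that results drives ATP synthesis at complex V. Most subunits are encoded in the nucleus and imported, while a small core is encoded in mitochondrial DNA, so every complex but complex II draws on both genomes. Embryonic cortical progenitors rely to a large part on glycolysis, and oxidative metabolism gains weight as neurons mature.

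Libraries held 820915 to 8095810 deduplicated reads on genes, and the smallest was cKO-E D. *Ino80* had 110 to 133 CPM (deduplicated reads per 1e+06 reads on genes, with library sizes scaled by TMM) in ctrl, 146 to 181 in cKO-E and 160 to 200 in dKO-E; a total over the whole gene does not show the loss of the deleted exons. *Trp53* had 36.7 to 49.9 CPM in ctrl, 34.0 to 43.9 in cKO-E and 26.9 to 42.4 in dKO-E. Markers of the labelled tissue were present. The summed level of 10 apical progenitor markers was 1560 to 2012 CPM in ctrl, 1314 to 1805 in cKO-E and 1323 to 1839 in dKO-E, and for 5 intermediate progenitor markers it was 341 to 411, 264 to 349 and 276 to 417 CPM. The sum of 10 cortical neuron markers was 1643 to 3023 CPM in ctrl, 2282 to 3018 in cKO-E and 1394 to 2235 in dKO-E. In cKO-E 1 apical progenitor marker was higher and 4 were lower of 9 tested, 2 of 5 intermediate progenitor markers were lower, and 3 of 9 tested neuron markers were higher. For dKO-E 1 apical progenitor and 2 neuron markers were lower. Over all genes tested, 7.31% were higher and 9.88% lower in cKO-E, and 5.45% and 10% in dKO-E (FDR under 0.05). The sum of 11 microglial markers was 5.43 to 13.7 CPM in ctrl, 30.7 to 42.7 in cKO-E and 5.86 to 10.7 in dKO-E, and that of 7 interneuron markers was 12.8 to 120 in ctrl, 93.8 to 176 in cKO-E and 40.7 to 97.7 in dKO-E. The sum of 6 meningeal markers was 2.84 to 65.4 CPM in ctrl, 1.24 to 7.42 in cKO-E and 2.97 to 67.0 in dKO-E. That of 10 erythroid markers was 48.3 to 133, 59.4 to 91.0 and 35.6 to 121 CPM. The highest ctrl value of both was ctrl F, and the highest dKO-E value of both was dKO-E B. The part of these cells in the results below was not tested. Fewer cells of a type and less RNA per cell cannot be told apart in such tissue.

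Of the 84 members, 73 passed the filter on low counts in every comparison. The remaining 11 were *Ndufa1*, *Ndufa13*, *Cox4i1*, *Cox4i2*, *Cox6a2*, *Cox6b2*, *Cox7a1*, *Cox7b2*, *Cox8b*, *Cox8c* and *Atp5k*. Of these, *Ndufa13*, *Cox4i1*, *Cox6a2* and *Cox8c* were listed at 0 in all 19 libraries. *Cox4i1* encodes the common isoform of a complex IV subunit and *Ndufa13* a complex I subunit of all cells, so a listed 0 says nothing of their transcription here. In 34 members no stretch of 50 exonic bases recurred in another gene, whereas in 20 members 10% or more of such stretches did. Both strands were searched, so exons of a gene that overlaps at the same locus counted too. For *Ndufb6* the 31.6% came only from the overlapping antisense gene *Smim27*. Where the sequence recurs at another locus, counts depend on how shared reads were dropped.

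In ctrl, levels of the tested members spanned from 4.70 CPM (*Uqcr10*) to 387 CPM (*Atp5b*), with a median of 18.4. Per kilobase of exon, the highest levels were those of *Cox8a*, a small complex IV subunit (141 CPM per kb), *Ndufc2* of complex I (96.4), *Atp5b*, the catalytic beta subunit of ATP synthase (91.3), and *Atp5a1*, its alpha subunit (70.3). The leading genes of the other complexes were lower, with *Sdhb*, the iron-sulfur subunit of complex II, at 17.9 CPM per kb and *Uqcrc2*, a core protein of complex III, at 17.4. The median over members was 8.21 CPM per kb in complex I, 16.3 in complex II, 9.79 in complex III, 16.4 in complex IV and 13.0 in complex V. Exonic length is the union over all annotated isoforms, which lowers the value per kb of genes with long rare isoforms.

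**Figure D1:**
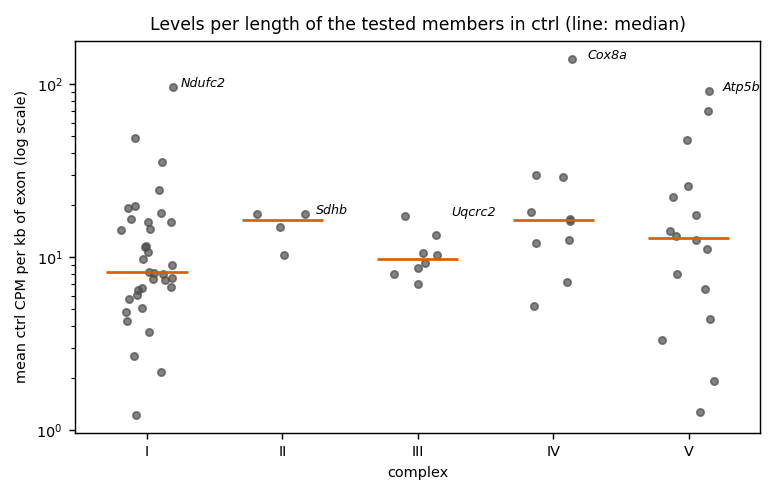
Mean ctrl level of each of the 73 tested members in CPM per kb of exon (log axis), by complex, with the median as a line. Members of 1 complex spread widely, and *Cox8a* (141), *Ndufc2* (96.4) and *Atp5b* (91.3) stand above the others of their complexes.

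Few members changed past the threshold after loss of *Ino80*. In cKO-E, 4 of 73 tested members were significantly lower (among them *Sdha*, *Ndufs4* and *Cox7b*; edgeR quasi-likelihood test, FDR under 0.05), against 9.88% of all genes tested, and 1 was higher (*Ndufv1*), against 7.31%. In dKO-E, 5 of 73 were lower (*Sdha*, *Ndufs4*, *Cox7b*, *Atp5c1* and *Ndufa7*), against 10%, and 1 was higher (*Ndufv1*), against 5.45%. Many members are short genes, 41 of the 84 having under 1500 exonic bases. Among protein-coding genes under that length, 12 were higher and 20 lower of 457 tested in cKO-E, and 20 were higher and 26 lower of 444 in dKO-E. The 31 tested members under that length held 0 higher and 1 lower in each mutant (*Cox7b*). The 42 longer members held 1 higher and 3 lower in cKO-E, and 1 higher and 4 lower in dKO-E. Summed over the 84 members, the level was 2454 to 2606 CPM in ctrl, 2297 to 2423 in cKO-E and 2303 to 2577 in dKO-E. The cKO-E range lay below that of ctrl, the dKO-E range overlapped it, and the mean was 0.948 of the ctrl mean in either mutant. With litter as a block 4 members were called in cKO-E and 2 in dKO-E (*Sdha* and *Ndufs4*). Of all genes, 1475 of 11660 and 585 of 11381 were called in that fit, against 2004 and 1759 in the main fits. Only litters 4, 5 and 7 held both ctrl and cKO-E, and only litter 1 both ctrl and dKO-E. Within batch 1 alone 5 and 3 members were called, and within batch 2 alone 1 and 2. Calls over all genes were 1677 of 12012 and 1413 of 12087 in batch 1, and 606 of 10990 and 356 of 11004 in batch 2. The calls of *Cox7b*, *Ndufv1* and *Ndufa7* were not reached within either batch alone, with the direction kept, whereas *Sdha* was called within each. Scaled by total counts, 4 members were higher and 4 lower in dKO-E, where that scaling moved the median of all genes to 0.10 on the log2 scale. Of all genes, 2477 of 11381 were called with that scaling. At the FDR of 0.001 used in the study, 1 member was lower in each mutant, *Sdha*, while 2.32% of all genes were lower in cKO-E and 2.34% in dKO-E.

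Over the 73 members the log2 fold change had a median of -0.02 in cKO-E and -0.003 in dKO-E, and over all genes it was 0.02 and 0.01. In cKO-E 35 members lay above 0 and 38 below, in dKO-E 36 and 37. A change smaller than 0.25 on the log2 scale was estimated for 55 of 73 members in cKO-E and 49 in dKO-E, and for 7847 of 11660 genes in cKO-E and 8175 of 11381 in dKO-E. Precision followed the level of the gene. The median standard error (SE) of the cKO-E change was 0.08 for the 23 members at 30 CPM or more in ctrl, and 0.22 for the 20 members under 10 CPM, none of which was called in either mutant.

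**Figure D2:**
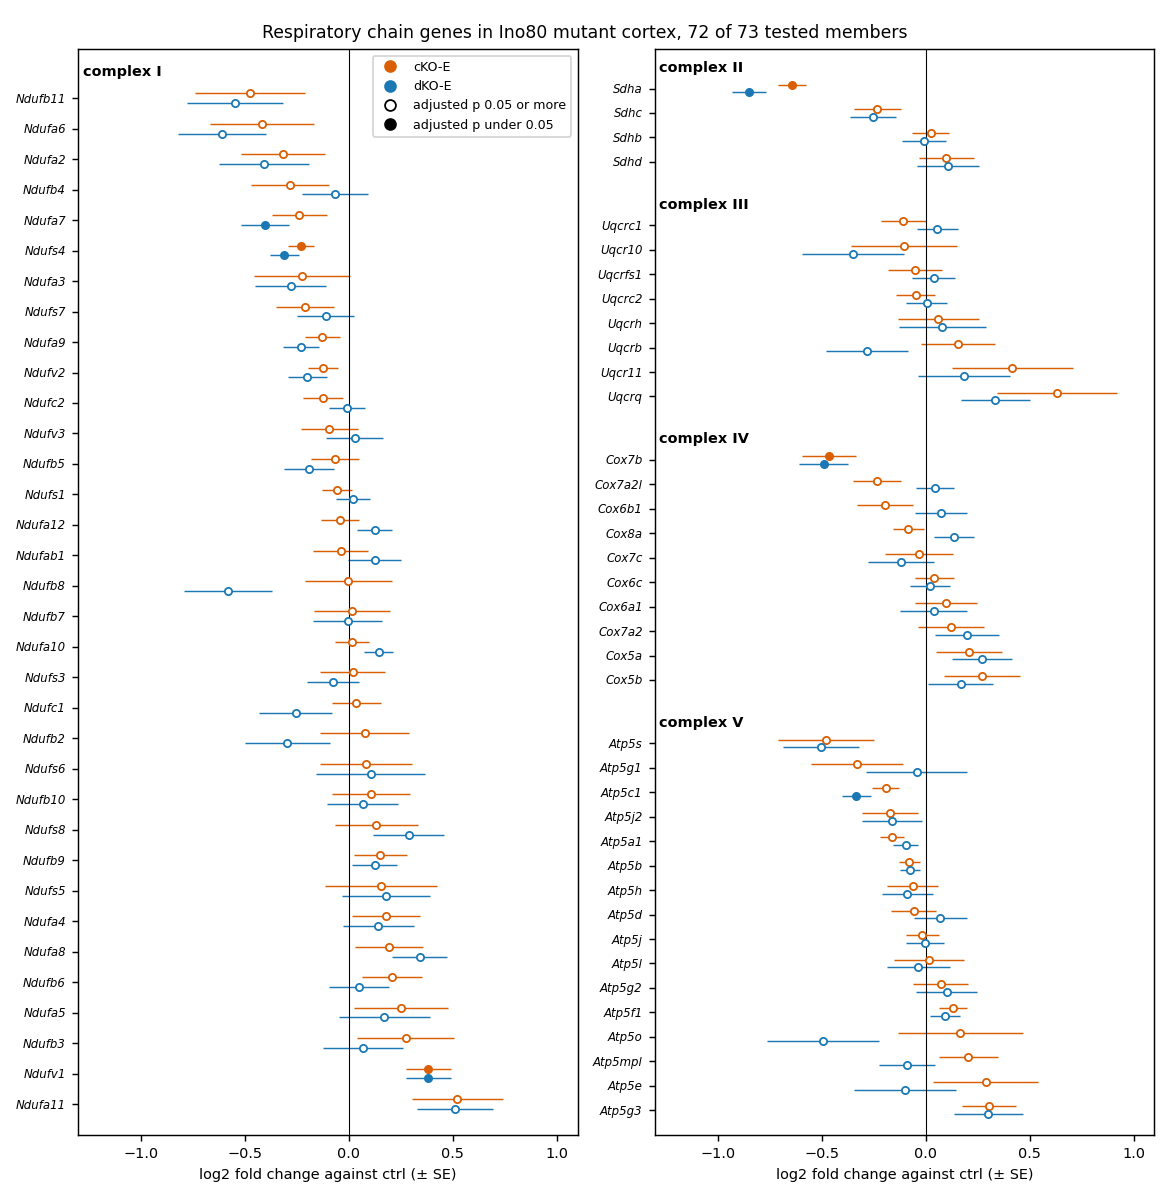
Log2 fold change against ctrl with its SE for 72 of the 73 tested members, by complex, in cKO-E (orange) and dKO-E (blue), with filled points at adjusted p under 0.05. Most members lie close to 0 and *Sdha* lies farthest below it, at -0.64 in cKO-E and -0.85 in dKO-E.

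The largest change was in complex II, which oxidizes succinate in the citric acid cycle and hands its electrons to the chain. *Sdha* (chromosome 13: 74322254-74350280, minus strand, mm10) encodes its catalytic flavoprotein subunit. Its level ranged from 68.1 to 80.9 CPM in ctrl (median 72.3), and was 45.5, 47.9, 45.6, 51.9 and 45.9 CPM in cKO-E A to E. In dKO-E it ranged from 32.6 to 48.1 CPM (median 39.8). All 12 mutant libraries lay below all 7 ctrl libraries. The fall was to 0.64-fold in cKO-E (log2 fold change -0.64 ± 0.07 SE, adjusted p = 6.12e-06, n = 5 and 7) and to 0.555-fold in dKO-E (-0.85 ± 0.08, adjusted p = 8.84e-07, n = 7 and 7; edgeR). No other gene shared exonic sequence with *Sdha*.

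The fall in *Sdha* was also seen between littermates. In litter 1, 2 ctrl embryos had 70.3 and 70.9 CPM and 3 dKO-E embryos 39.8 to 48.1. In litter 7, 2 ctrl embryos had 72.3 and 75.9 CPM and the cKO-E embryo 45.9. When littermates were compared in a fit with litter as a block, *Sdha* gave -0.70 on the log2 scale for cKO-E (adjusted p = 0.000199 by edgeR) and -0.69 for dKO-E (adjusted p = 0.0033 by edgeR). The blocked dKO-E estimate rests on the 2 ctrl and 3 dKO-E embryos of litter 1. The blocked cKO-E estimate rests on litters 4, 5 and 7, with 1 cKO-E embryo each. Between the mutants, *Sdha* was 0.20 lower in dKO-E on the log2 scale with an adjusted p of 0.217 by edgeR (95% interval of the log2 difference -0.39 to 0.001).

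The other 3 subunits of complex II were not called. *Sdhb*, which forms the soluble arm of the enzyme with *Sdha*, had 34.6 to 43.9 CPM in ctrl, 36.8 to 44.2 in cKO-E and 31.4 to 55.6 in dKO-E, and the groups overlapped. On the log2 scale *Sdhb* changed by no more than its error, with 0.02 for cKO-E (95% interval -0.15 to 0.20) and -0.01 for dKO-E (-0.22 to 0.20). The membrane anchors *Sdhc* and *Sdhd* had log2 fold changes of -0.23 ± 0.11 and 0.10 ± 0.13 SE in cKO-E, and -0.25 ± 0.11 and 0.11 ± 0.15 in dKO-E. The summed level of complex II was 156 to 174 CPM in ctrl, 125 to 143 in cKO-E and 97.9 to 165 in dKO-E. Without *Sdha* it was 81.6 to 98.8, 76.6 to 94.96 and 65.3 to 117 CPM, and the groups overlapped.

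The promoters of *Sdha* and *Sdhb* are shown because the first was called and the second was not, with motif matches in capitals (RefSeq, GRCm38.p6, 250 bases before to 30 after the annotated start). *Sdha* (chr13:74350211-74350490, minus strand) held 3 matches to the binding motif of NRF1 with its centre left free (GCGCA, any base, then GCGC), beginning 98, 55 and 10 bases before the start. Of 27025 genes with a promoter, 0.281% held 3 or more. The form with a free centre was added after the sequences were seen, so this share cannot test how unusual *Sdha* is. The palindromic form of the motif, with a fixed centre, was not found in the *Sdha* window. *Sdhb* (chr4:140961021-140961300, plus strand) held 1 CCGGAAG, a motif of ETS factors including GABP.
Sdha: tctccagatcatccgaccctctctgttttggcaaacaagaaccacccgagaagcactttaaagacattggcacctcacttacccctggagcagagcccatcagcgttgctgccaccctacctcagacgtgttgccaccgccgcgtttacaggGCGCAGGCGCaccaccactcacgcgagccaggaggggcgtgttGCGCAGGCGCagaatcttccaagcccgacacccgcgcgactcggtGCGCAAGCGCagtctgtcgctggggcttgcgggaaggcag
Sdhb: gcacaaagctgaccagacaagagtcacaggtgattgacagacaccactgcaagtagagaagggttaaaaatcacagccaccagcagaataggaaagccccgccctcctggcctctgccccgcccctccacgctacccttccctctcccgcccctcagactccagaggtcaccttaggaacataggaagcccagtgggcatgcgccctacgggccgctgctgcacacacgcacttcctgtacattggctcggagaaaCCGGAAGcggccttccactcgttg

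Complex I takes electrons from NADH and is the largest of the complexes. *Ndufs4*, an accessory subunit needed for the assembly and stability of the complex (chromosome 13: 114287795-114388258, minus strand), had 127 to 145 CPM in ctrl (median 131). In cKO-E A to E it had 108, 111, 103, 125 and 122 CPM, and in dKO-E 94.5 to 126 (median 104). No mutant library reached the ctrl range, although the highest dKO-E library came within rounding of the lowest ctrl library. *Ndufs4* fell by 0.23 ± 0.06 SE on the log2 scale in cKO-E (adjusted p = 0.0172 by edgeR) and by 0.31 ± 0.07 in dKO-E (adjusted p = 0.00506 by edgeR). The blocked fit gave *Ndufs4* log2 fold changes of -0.26 and -0.39, with adjusted p-values by edgeR of 0.0502 for cKO-E and 0.0399 for dKO-E. Within batch 2 the log2 fold changes of *Ndufs4* were -0.08 and -0.07 in cKO-E and dKO-E (adjusted p = 0.744 and 0.787 by edgeR). Within batch 1 they were -0.32 and -0.38. Batch 2 held only 3 ctrl, 2 cKO-E and 2 dKO-E libraries, among them the smallest of each mutant, cKO-E D and dKO-E G. The difference between the batches was not tested.

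*Ndufv1*, the flavoprotein that accepts electrons from NADH, was the member that rose. It had 18.7 to 24.5 CPM in ctrl, 23.4, 30.7, 30.6, 25.9 and 28.7 CPM in cKO-E A to E and 24.0 to 35.3 in dKO-E. 4 of 5 cKO-E libraries and 5 of 7 dKO-E libraries lay above every ctrl library. The rise was 1.30-fold in cKO-E (log2 fold change 0.38 ± 0.11 SE, adjusted p = 0.0195 by edgeR) and 1.30-fold in dKO-E (0.38 ± 0.11, adjusted p = 0.0191 by edgeR). Blocked by litter, the rise in *Ndufv1* was 0.54 in cKO-E (adjusted p = 0.0144 by edgeR) and 0.30 in dKO-E (adjusted p = 0.322 by edgeR). Without cKO-E B or cKO-E C the call in cKO-E was lost, with an adjusted p of up to 0.069 by edgeR.

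*Ndufa7*, an accessory subunit, had 18.6 to 30.6 CPM in ctrl (median 27.8), 13.6 to 25.2 in cKO-E and 16.3 to 23.4 in dKO-E (median 21.2). The lowest ctrl library lay inside the mutant ranges. The fall was called in dKO-E only (log2 fold change -0.40 ± 0.11 SE, adjusted p = 0.0218 by edgeR), where *Ndufa7* in cKO-E gave -0.24 ± 0.13 (adjusted p = 0.243 by edgeR) and the mutants did not differ past the threshold (adjusted p = 0.497 by edgeR). In the fit with litter as a block the adjusted p of *Ndufa7* in dKO-E was 0.141 by edgeR, and it was above 0.05 without ctrl A, dKO-E D or dKO-E F (up to 0.0553 by edgeR).

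Of the other members of complex I, *Ndufa11* had the largest estimated rise (log2 fold change 0.52 ± 0.22 SE in cKO-E and 0.51 ± 0.18 in dKO-E, adjusted p = 0.114 and 0.0657 by edgeR) and was not called; exons of the antisense gene *Vmac* cover 6.41% of its length. *Ndufb8*, an accessory subunit of the membrane arm, had 4.65 to 8.52 CPM in ctrl and 2.36 to 5.65 in dKO-E (-0.58 ± 0.21 SE, adjusted p = 0.0717 by edgeR). Its difference between the mutants was -0.57 ± 0.23 SE for dKO-E against cKO-E (adjusted p = 0.107 by edgeR), and in cKO-E against ctrl it gave -0.003 ± 0.21. *Ndufa6*, another accessory subunit, had 7.77 to 17.7 CPM in ctrl, 3.63 to 13.2 in cKO-E and 4.24 to 12.5 in dKO-E. The *Ndufa6* estimate was -0.42 ± 0.25 SE on the log2 scale for cKO-E (adjusted p = 0.285 by edgeR) and -0.61 ± 0.21 for dKO-E (adjusted p = 0.0586 by edgeR), and the groups overlapped. The summed level of the 37 complex I genes was 848 to 923 CPM in ctrl, 796 to 882 in cKO-E and 761 to 901 in dKO-E, and the groups overlapped.

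Complex III, which passes electrons from ubiquinol to cytochrome c, had no called member among 8 tested in any comparison. At an unadjusted p under 0.05, 1 member stood out in cKO-E and 0 in dKO-E. That member was *Uqcrq*, a small subunit near cytochrome b, with 9.37 to 21.6 CPM in ctrl and 18.1, 17.5, 14.2, 50.6 and 11.5 CPM in cKO-E A to E. The value of 50.6 belonged to cKO-E D, the smallest library. The cKO-E estimate for *Uqcrq* was 0.63 ± 0.29 SE on the log2 scale (adjusted p = 0.15 by edgeR). The core proteins *Uqcrc1* and *Uqcrc2* had log2 fold changes of -0.11 ± 0.11 and -0.05 ± 0.10 SE in cKO-E, and 0.06 ± 0.10 and 0.004 ± 0.10 in dKO-E. Exons of the antisense gene *Pdzd9* cover 19.8% of *Uqcrc2*. The summed level of complex III was 130 to 177 CPM in ctrl, 141 to 191 in cKO-E and 130 to 179 in dKO-E.

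Complex IV, cytochrome c oxidase, had 1 called member among 10 tested. *Cox7b*, a small subunit encoded on chromosome X (106015700-106022450, plus strand), had 28.9 to 45.8 CPM in ctrl (median 34.9), 28.4, 24.0, 21.9, 33.4 and 24.6 CPM in cKO-E A to E, and 17.0 to 30.3 in dKO-E (median 25.9). The ranges overlapped in 1 library of each mutant. *Cox7b* fell to 0.725-fold in cKO-E (log2 fold change -0.46 ± 0.13 SE, adjusted p = 0.0183 by edgeR) and to 0.712-fold in dKO-E (-0.49 ± 0.12, adjusted p = 0.00874 by edgeR). With sex as a covariate both calls held for *Cox7b* (-0.51 and -0.49). With litter as a block it was -0.65 in cKO-E (adjusted p = 0.0106 by edgeR) and -0.35 in dKO-E (adjusted p = 0.304 by edgeR). Without cKO-E B or cKO-E C the call in cKO-E was lost (adjusted p up to 0.0624 by edgeR).

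*Cox8a* was the complex IV gene with the highest level per length, and its dKO-E libraries fell apart by litter. The 3 dKO-E libraries of litter 1 had 122, 120 and 99.5 CPM and the 4 of litter 2 had 72.4 to 88.7, while ctrl had 78.4 to 96.3, including 87.3 and 89.9 in litter 1. The log2 fold change in dKO-E was 0.14 ± 0.10 SE (adjusted p = 0.383 by edgeR). *Cox7a2l*, which aids the joining of complexes III and IV, gave -0.23 ± 0.11 SE in cKO-E and 0.05 ± 0.09 in dKO-E on the log2 scale, neither called. The summed level of complex IV was 262 to 297 CPM in ctrl, 253 to 296 in cKO-E and 267 to 318 in dKO-E.

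The tissue-restricted isoforms of complex IV were at or near 0. *Cox8b* had 2 counts in all libraries together, *Cox7a1* 15, *Cox7b2* 28 and *Cox6b2* 44. *Cox4i2*, an isoform known from lung and induced by low oxygen in some cells, had 12 counts over the 7 ctrl libraries (1 to 3 each), 33 over the 5 cKO-E libraries (1 to 9 each) and 30 over the 7 dKO-E libraries (0 to 12 each). All 5 cKO-E libraries had a higher CPM of *Cox4i2* (1.24 to 3.04) than all ctrl libraries (0.284 to 1.11). The value of 1.24 is 1 count in cKO-E D, where 3 counts equal 3.71 CPM, and the 1.11 is 2 counts in ctrl I. The lack of overlap therefore hangs on 1 read. *Cox4i2* failed the filter on low counts. With every gene of at least 1 count tested, the estimate for *Cox4i2* was 1.99 ± 0.52 SE in cKO-E on the log2 scale (adjusted p = 0.00977 by edgeR) and 0.93 ± 0.58 in dKO-E (adjusted p = 0.422 by edgeR). Of 7 endothelial markers, the summed level was 42.2 to 80.5 CPM in ctrl and 51.3 to 71.0 in cKO-E; no list of pericyte markers was tested.

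Complex V, the ATP synthase, had 16 tested members. *Atp5c1*, the gamma subunit that forms the rotating shaft (chromosome 2: 10056016-10080510, minus strand), had 84.4 to 103 CPM in ctrl (median 91.4), 80.1, 77.8, 84.2, 82.8 and 74.9 CPM in cKO-E A to E and 62.7 to 80.3 in dKO-E (median 72.2). Every mutant library lay below every ctrl library. It fell by 0.33 ± 0.07 SE on the log2 scale in dKO-E (adjusted p = 0.00252 by edgeR), and with litter as a block the log2 fold change of *Atp5c1* was -0.27 (adjusted p = 0.151 by edgeR). In cKO-E it was -0.19 ± 0.07, with an adjusted p of 0.0508 by edgeR. The beta subunit *Atp5b*, the most abundant member, had 371 to 407 CPM in ctrl, 348 to 380 in cKO-E and 353 to 398 in dKO-E. On the log2 scale *Atp5b* gave -0.08 ± 0.05 SE against ctrl in both mutants and was not called.

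Counting all comparisons, 4 tested members had groups without overlap in cKO-E (among them *Sdha*, *Ndufs4* and *Atp5c1*), against 8.83% of all genes tested, and 3 in dKO-E (*Sdha*, *Ndufs4* and *Atp5c1*), against 4.43%. The summed level of complex V was 990 to 1102 CPM in ctrl, 956 to 1003 in cKO-E and 911 to 1049 in dKO-E.

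**Figure D3:**
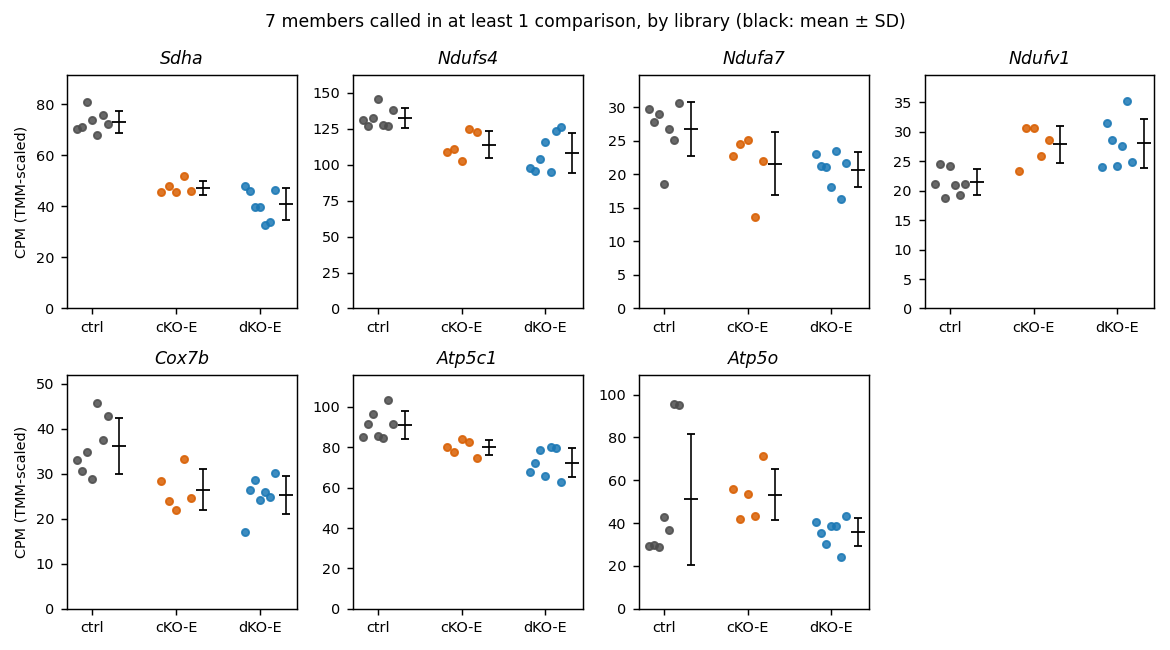
CPM in each library for 7 of the 8 members called in at least 1 comparison, with mean ± SD in black (n = 7 ctrl, 5 cKO-E and 7 dKO-E). All mutant libraries lie below all ctrl libraries for *Sdha*, *Ndufs4* and *Atp5c1*, and 3 libraries of *Atp5o* stand above the others.

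**Figure D4:**
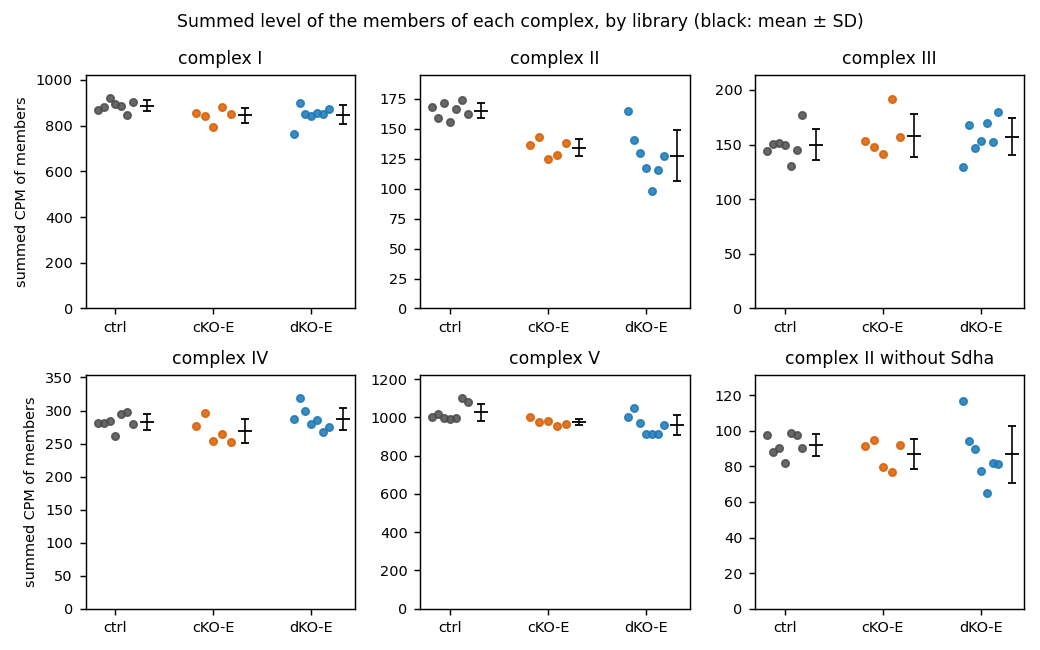
Summed CPM of the members of each complex in each library, with mean ± SD in black, and complex II again without *Sdha*. In complex II every cKO-E library (125 to 143 CPM) lies below every ctrl library (156 to 174 CPM), and without *Sdha* the groups overlap.

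The c subunit of the membrane rotor is encoded by 3 genes whose mature proteins are the same. In ctrl *Atp5g1* had 4.13 to 9.16 CPM, *Atp5g2* 15.6 to 23.0 and *Atp5g3* 14.8 to 22.7. Per kilobase of exon the mean ctrl levels were 1.27, 11.1 and 7.99 CPM. None was called in either mutant, with log2 fold changes of -0.33 ± 0.22, 0.07 ± 0.13 and 0.31 ± 0.13 SE in cKO-E and -0.04 ± 0.24, 0.10 ± 0.15 and 0.30 ± 0.17 in dKO-E. Of the 50-base stretches of *Atp5g2*, 38.3% recur in other genes, against 11.1% for *Atp5g1* and 0 for *Atp5g3*.

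Between the mutants, 1 of 73 tested members was lower in dKO-E, *Atp5o*, against 9.42% of all genes tested, and 0 were higher, against 5.59%. At an unadjusted p under 0.05, 2 members were higher and 2 lower. *Atp5o* encodes the subunit that ties the catalytic head of ATP synthase to its stalk (chromosome 16: 91925214-91931687, minus strand). It had 56.0, 41.7, 53.6, 43.2 and 71.5 CPM in cKO-E A to E and 24.1 to 43.2 in dKO-E (median 38.5). The groups overlapped, with the highest dKO-E library above cKO-E B and marginally above cKO-E D. The log2 fold change was -0.64 ± 0.14 SE (adjusted p = 0.00438 by edgeR). Against ctrl neither mutant was called, with log2 fold changes of 0.17 ± 0.30 SE in cKO-E and -0.49 ± 0.27 in dKO-E.

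The level of *Atp5o* moved with litter. Both ctrl embryos of litter 7 had 95.55 and 95.04 CPM and the cKO-E embryo of that litter 71.5, whereas the other 5 ctrl embryos had 28.7 to 42.8. Without litter 7, an alternative chosen after these values were seen, *Atp5o* was higher in cKO-E than in ctrl (log2 fold change 0.58, adjusted p = 0.00715 by edgeR), and the dKO-E estimate was 0.07 (adjusted p = 0.786 by edgeR). The difference between the mutants was then -0.50 on the log2 scale (adjusted p = 0.0163 by edgeR). In 1 fit over all libraries the difference between the mutants in *Atp5o* was not called (adjusted p = 0.127 by edgeR). No litter held both mutants, so litter and genotype cannot be told apart there. Reads on no annotated gene were also frequent in litter 7, at 11.1%, 12.4% and 9.73% of reads against 4.96% to 8.41% in the other libraries. Exons of other genes, among them the second *Atp5o* model, cover 47.9% of the exonic length of *Atp5o*. In all, 41.6% of its 50-base stretches recur in other genes, that model included. The model was absent from the count files. The part of litter and of shared sequence in the result was not tested.

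**Figure D5:**
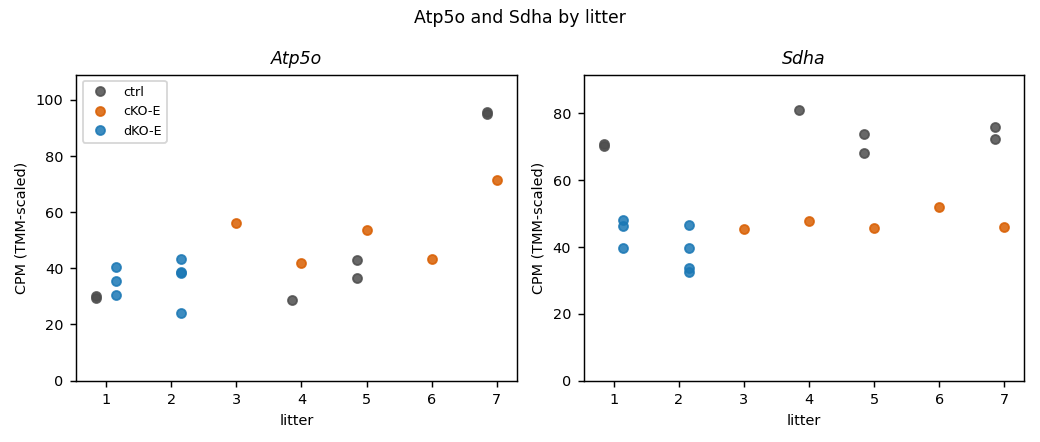
CPM of *Atp5o* and *Sdha* in each library by litter, coloured by group. The 3 embryos of litter 7 have the highest *Atp5o* levels (71.5 to 95.6 CPM), while *Sdha* is lower in mutants than in ctrl within every litter that holds both.

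Promoter sequences were found for 69 members. CCGGAAG, searched on both strands of the same 280-base windows, was held by 16 of them (23.2%) and by 9.48% of all 27025 genes. The NRF1 motif with a free centre, added after the sequences were seen, was held by 16 (23.2%) and by 4.98% of all genes, and its palindromic form by 4 (5.80%) and 1.02%. AAGATGGCG, a motif of YY1, was held by 1 (*Atp5j*) and by 1.22% of all genes. Of the 8 called members 7 had a promoter sequence; 3 of these held the free-centre NRF1 motif (*Sdha*, *Atp5c1* and *Atp5o*) and 0 held CCGGAAG. The windows of *Ndufs4* (chr13:114388065-114388344, minus strand) and *Cox7b* (chrX:106015450-106015729, plus strand), lower in both mutants like *Sdha*, and of *Ndufv1* (chr19:4012726-4013005, minus strand), which was higher, held none of these and are shown for comparison with that of *Sdha*.
Ndufs4: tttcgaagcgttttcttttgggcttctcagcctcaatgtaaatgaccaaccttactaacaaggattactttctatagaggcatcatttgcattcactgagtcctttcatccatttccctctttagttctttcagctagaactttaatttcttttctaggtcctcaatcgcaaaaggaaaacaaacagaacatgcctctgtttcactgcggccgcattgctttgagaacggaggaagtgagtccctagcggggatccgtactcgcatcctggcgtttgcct
Cox7b: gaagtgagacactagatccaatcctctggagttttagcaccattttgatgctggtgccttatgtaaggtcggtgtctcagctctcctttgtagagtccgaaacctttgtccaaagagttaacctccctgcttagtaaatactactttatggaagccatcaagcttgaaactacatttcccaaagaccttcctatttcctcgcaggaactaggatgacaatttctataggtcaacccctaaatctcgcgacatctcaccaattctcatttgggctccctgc
Ndufv1: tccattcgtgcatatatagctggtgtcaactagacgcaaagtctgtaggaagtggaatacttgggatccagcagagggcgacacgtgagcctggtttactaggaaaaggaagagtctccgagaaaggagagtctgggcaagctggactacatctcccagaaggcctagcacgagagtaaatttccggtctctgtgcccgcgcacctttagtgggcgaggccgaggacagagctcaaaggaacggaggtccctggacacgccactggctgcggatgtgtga

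Other genes of the pathway were read from lists of their own. Of 49 genes for assembly and insertion of the complexes, 44 were tested. In cKO-E 3 rose and 2 fell, and in dKO-E 4 rose and 3 fell. For this list and those below, 7.31% of all genes tested were higher and 9.88% lower in cKO-E. In dKO-E these shares were 5.45% and 10%. *Uqcc1*, an assembly factor of complex III, had 55.0 to 75.9 CPM in ctrl, 45.7 to 50.7 in cKO-E and 39.9 to 51.4 in dKO-E, with no overlap. It fell by 0.49 ± 0.08 SE on the log2 scale in cKO-E and by 0.61 ± 0.08 in dKO-E, although no complex III subunit was called. *Cox20*, a chaperone of the mitochondrially encoded COX2, fell by 0.52 ± 0.13 SE and 0.62 ± 0.14. *Cox19*, a copper-related factor of complex IV, rose by 0.67 ± 0.12 SE in cKO-E.

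Of 13 citric acid cycle genes, all tested, cKO-E had 1 lower gene, and dKO-E had 2 higher and 1 lower. *Suclg2*, a subunit of the GTP-forming enzyme that releases succinate, the substrate of complex II, had 60.2 to 96.7 CPM in ctrl, 33.4 to 61.3 in cKO-E and 30.2 to 45.4 in dKO-E. Only the highest cKO-E library reached the ctrl range. *Suclg2* fell by 0.63 ± 0.13 SE on the log2 scale in cKO-E and by 1.05 ± 0.11 in dKO-E, and the level in dKO-E was below that in cKO-E by 0.40 ± 0.13 (adjusted p = 0.0366 by edgeR). *Suclg1*, the alpha subunit that pairs with the *Suclg2* product in the same enzyme, rose by 0.33 ± 0.09 SE in dKO-E (adjusted p = 0.0187 by edgeR). *Ogdh*, which encodes a component of the enzyme of the step before, rose by 0.33 ± 0.05 SE in dKO-E.

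Of 13 mitochondrially encoded subunits, 6 were listed at 0 in all libraries (*mt-Nd3*, *mt-Nd4l*, *mt-Co2*, *mt-Co3*, *mt-Atp6* and *mt-Atp8*) and 7 were tested. *mt-Nd1* of complex I was higher in cKO-E (log2 fold change 0.29 ± 0.10 SE, adjusted p = 0.0449 by edgeR), and in dKO-E it gave 0.40 ± 0.18 (adjusted p = 0.145 by edgeR). *mt-Co1* of complex IV gave -0.12 and -0.21 on the log2 scale in cKO-E and dKO-E and was not called. Of 8 genes for cytochromes, carriers and pores, 0 were called in cKO-E and 1 was higher in dKO-E, the phosphate carrier *Slc25a3* (0.33 ± 0.08 SE); *Slc25a4*, the ADP/ATP carrier, was lower by 0.31 ± 0.09 SE in dKO-E when the mutants were compared.

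Of 17 glycolysis genes, 2 were lower in cKO-E (*Aldoc* and *Hk2*) and 2 in dKO-E (*Pfkp* and *Ldhb*), with 0 higher in either. The hexokinase *Hk2* fell by 0.49 ± 0.12 SE in cKO-E, the aldolase *Aldoc*, also a progenitor and astroglial gene, by 0.76 ± 0.10, and *Pfkp*, a phosphofructokinase, by 0.70 ± 0.14 in dKO-E. Between the mutants *Aldoc* was higher and *Hk1*, *Ldhb* and *Pfkp* lower in dKO-E. Of 10 cortical neuron markers, 9 of which were tested, 6 were also lower in dKO-E in that comparison, against 9.42% of all genes. The part of neurons in these differences was not tested.

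Of 15 regulators of mitochondrial genes, cKO-E had 1 higher and 4 lower genes, and dKO-E 1 of each. *Ppargc1b*, a coactivator of mitochondrial biogenesis, had 5.47 to 8.34 CPM in ctrl, 1.69 to 4.62 in cKO-E and 2.46 to 7.26 in dKO-E, and fell by 0.99 ± 0.24 SE and 0.67 ± 0.22. *Nrf1*, a transcription factor of mitochondrial genes, had 304 to 368 CPM in ctrl, 264 to 307 in cKO-E and 316 to 340 in dKO-E. It fell by 0.19 ± 0.06 SE in cKO-E (adjusted p = 0.0408 by edgeR) and gave 0.01 ± 0.05 in dKO-E. Of the subunits of GABP, *Gabpa* fell by 0.25 ± 0.08 in cKO-E, whereas *Gabpb1* rose by 0.23 ± 0.08 in cKO-E and by 0.24 ± 0.08 SE in dKO-E. *Hcfc1*, a cofactor of such promoters, fell by 0.30 ± 0.07 in cKO-E. Compared with cKO-E, the dKO-E group had more *Nrf1*, *Hcfc1* and *Yy1*.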

How the data were processed

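RNA of E13.5 cortices was sequenced as ribosomal RNA-depleted Click-seq libraries with molecular identifiers. Per the study's methods and processing notes, the authors aligned reads with STAR (2.5.2a) to mm10, removed duplicates with UMI-tools (0.5.3) and counted reads per gene with HTSeq (0.6.1p1). The deposited values are these deduplicated read counts, not normalized. HTSeq drops reads shared by several genes, so members with repeated sequence are undercounted. Summary rows that name no gene were left out of library sizes; reads on no gene or on several made up 23.3% to 31.9% of each library's total. Annotation of the 51912 gene identifiers, of which 51719 were found, came from GENCODE M21.

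Counts of all genes were tested with edgeR (4.0.16; R 4.3.3), with filterByExpr (minimum count 10), TMM factors and the quasi-likelihood test, separately for each pair of groups and without covariates. The p-values were adjusted by Benjamini-Hochberg over all genes tested, and genes were called at FDR 0.05. SE was taken as the size of the log2 fold change divided by the square root of the F statistic of the test. The 95% intervals are nominal, 1.96 such SE either way, and can be narrower than the test implies. For *Sdhc* in cKO-E the interval was -0.456 to -0.010, while the unadjusted p was 0.0558 by edgeR. CPM used library sizes scaled by TMM. The p-values of the main fits rest on the spread between embryos of a group, with no term for litter. They treat littermates as independent and can be too small where littermates resemble each other, as dKO-E came from only 2 litters. The fit was tested on simulated counts. Members named were those called, in each complex the one with the smallest p and the highest level per kb, the c-subunit genes, the restricted complex IV isoforms and those without overlap; *Ndufa6*, *Ndufa11*, *Sdhc*, *Sdhd*, *Atp5a1* and *Uqcr10* were chosen after their values were seen. The members and gene lists were chosen with earlier results of these data known.

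Litter labels pair some embryos across groups, and litter was used as a block in an alternative fit. Embryos of a litter without both groups add nothing to a blocked estimate, so its calls rest on fewer embryos than those of the main fit. Deviations of littermates correlated between -0.131 and 0.361 in cKO-E and ctrl, and between -0.371 and 0.346 in dKO-E and ctrl. Other alternatives were DESeq2 (1.42.0), a likelihood-ratio test, other scalings and filters, batch or sex as covariate, each batch alone, replicate letter as a block, 1 fit over all libraries and leaving out each library. Leaving out litter 7, and fitting the libraries of the letter block without the block, were added after seeing the data. A called member is not reported here.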

Additional observations from a re-analysis of the deposited data

Results flagged for a closer look

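In 3 of 72 groups of 5 or 7 libraries, 1 library stood far from the others relative to the range of its group, a rule that chance meets in about 1 of 20 groups. *Ndufa7* was 13.6 CPM in cKO-E D against 21.9 to 25.2 in the other cKO-E libraries. *Uqcrq* was 50.6 CPM in cKO-E D, the smallest library, against 11.5 to 18.1. The summed level of complex I was 761 CPM in dKO-E A against 844 to 901. That library was also the lowest of dKO-E in the sums of mitochondrially encoded subunits (2405 CPM) and cytosolic ribosomal protein genes (3372 CPM). In complex II it was the highest of dKO-E (165 CPM). The mutants differed from each other in *Atp5o* by the direct test, with a log2 fold change of -0.638 (dKO-E against cKO-E).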

How the results depend on the processing

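No called member changed direction under any alternative run; medians of members lay near 0 and changed sign under several. In all, 149 of the recomputed counts and medians stayed near the value reported. At FDR 0.001 the members called fell to 1 in cKO-E, 1 in dKO-E and 0 between the mutants. With litter as a block 2 were called in dKO-E, and the cKO-E median became -0.071. Calls over all genes in dKO-E fell from 1759 to 585 of 11381 with that block. With the replicate letter as a block, where the letters were not found to pair embryos, 3 were called in dKO-E, 5 in cKO-E and 2 between the mutants; of the same libraries without the block, 4, 5 and 1 were called. Batch 1 alone gave 3 in dKO-E, and batch 2 alone gave 1 in cKO-E and 2 in dKO-E with a dKO-E median of -0.077. Calls over all genes were also fewer in batch 2, at 606 of 10990 in cKO-E and 356 of 11004 in dKO-E. Scaling by total counts gave medians of 0.093 in dKO-E and 0.036 between the mutants. Between the mutants, sex as a covariate gave 4 called members (2448 of 11746 genes) and 1 fit over all libraries gave 0 (1728 of 12048 genes). Leaving out each library gave 3 to 6 calls in cKO-E (3 without cKO-E B or C), with medians of -0.067 to 0.024 (-0.067 without cKO-E A), and 5 to 7 calls in dKO-E. *Sdha* was called against ctrl in all 27 and 29 alternatives. The cause of the other changes was not tested. Members under 10 CPM had SEs near 0.2, so small changes in them were not detectable at this depth.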
